A study of Homo sapiens with 9 samples.

Results

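The genes described here encode the nuclear subunits and assembly factors of mitochondrial complex I, the NADH:ubiquinone oxidoreductase. They were taken as every protein-coding row of the expression table whose symbol begins with NDUFA, NDUFB, NDUFC, NDUFS, NDUFV or NDUFAF. This gave 47 genes of 34789 rows, 17463 of which were protein-coding, and the 47 genes lay on 22 chromosomes. Another 36 rows with such a symbol are pseudogenes or other non-coding genes and were not counted. The rule used gene names alone and no measured value, though it was set with earlier results of these data known.

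RNA was sequenced from H1299, an established human line of non-small cell lung cancer cells. One group was transfected with the siRNA siFOXN3-1, another with siFOXN3-2, which targets the same gene, and the control group with siControl, each at 50 nM with a lipid reagent and with 3 samples per group. The labels describe the genotype of both knockdown groups as a FOXN3 knockdown and give no time between transfection and RNA extraction. FOXN3 encodes a forkhead transcription factor that acts as a repressor. For siFOXN3-2 replicates 2 and 3 the treatment field reads siFOXN4 and siFOXN5, while the sample title and the table column read siFOXN3-2. No label says that the 3 samples of a group came from separate cultures, and the spread behind each p-value may therefore be technical. The level used throughout is FPKM, fragments per kilobase of transcript per 1e6 mapped fragments, as deposited. FPKM is a share of the RNA sequenced, so the amount of RNA per cell was not measured and less RNA per cell cannot be told apart from fewer contributing cells.

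Depth was 17.0 to 19.6 M fragments (M, 1e6) per sample. FOXN3 had 1.28, 1.24 and 1.16 FPKM in the siFOXN3-1 samples and 0.858, 0.958 and 1.06 FPKM in the siFOXN3-2 samples, against 4.85, 5.25 and 5.005 FPKM in the siControl samples. All 6 knockdown samples lay below all 3 controls, the 2 samples with conflicting labels included, and p was 0.1 with either siRNA in an exact two-sided permutation test, which can give no smaller p with 3 samples per group. Its log2 fold changes were -1.44 and -1.62 (adjusted p = 1.42e-07 and 8.16e-08). Of the epithelial markers, KRT8 averaged 126, 87.8 and 111 FPKM with siFOXN3-1, siFOXN3-2 and siControl, and KRT18 averaged 231, 172 and 184 FPKM. EPCAM, CDH1 and KRT19 averaged at most 0.298 FPKM in any group, while the mesenchymal filament gene VIM averaged 552, 468 and 476 FPKM. The immune, endothelial and fibroblast markers averaged at most 0.281 FPKM in any group, except for the collagen genes COL1A1, at 0.490, 1.62 and 0.885 FPKM, and COL1A2, at 0.916 FPKM with siFOXN3-2 and at most 0.0194 FPKM in the other groups. The lung epithelial gene SFTPB averaged at most 0.0381 FPKM.

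Complex I is the largest enzyme of the respiratory chain. Its N module, at the tip of the arm in the mitochondrial matrix, takes electrons from NADH, its Q module passes them to ubiquinone, and its membrane arm pumps protons across the inner membrane. The core pumping subunits of the membrane arm are encoded in mitochondrial DNA by the MT-ND genes, and all other subunits are nuclear. Accessory subunits surround the core and hold the arms together, and assembly factors help to build the enzyme but are absent from the finished complex. By role, the 47 genes were 10 of the N module, 6 of the Q module, 9 of the proximal and 12 of the distal membrane arm, 8 assembly factors named NDUFAF, and NDUFA4 with its paralog NDUFA4L2. NDUFA4 carries a complex I name but is now assigned to complex IV.

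Since the genes did not move together, the promoters of the genes with the most positive and the most negative mean change are shown, so that they can be set side by side. Promoter sequences were taken from RefSeq (GRCh38.p14) as the 250 bases before the RefSeq start, and 39 of the 47 genes had an entry. The gene positions given elsewhere are from GENCODE 29, whose gene begins at its most upstream transcript. The RefSeq start lay within 100 bases of that position for 22 of the 39 genes. For the genes shown it lay 10 bases upstream of it in NDUFAF4 and 69, 211 and 13665 bases downstream of it in NDUFV2, NDUFB1 and NDUFV3, so the windows of NDUFV3 and, in large part, NDUFB1 lie inside the GENCODE genes. Among the genes called with both siRNAs, NDUFAF4 and NDUFV2 had the most positive mean change, and NDUFV3 and NDUFB1 the most negative. NDUFV2 reached the level needed for testing only through the knockdown samples in which it was high. Capitals mark matches, on either strand, to the 7 motifs searched. NDUFAF4 is shown for chr6:96897892-96898141 (minus strand), NDUFV2 for chr18:9102449-9102698 (plus strand), NDUFV3 for chr21:42893059-42893308 (plus strand) and NDUFB1 for chr14:92121707-92121956 (minus strand).
NDUFAF4: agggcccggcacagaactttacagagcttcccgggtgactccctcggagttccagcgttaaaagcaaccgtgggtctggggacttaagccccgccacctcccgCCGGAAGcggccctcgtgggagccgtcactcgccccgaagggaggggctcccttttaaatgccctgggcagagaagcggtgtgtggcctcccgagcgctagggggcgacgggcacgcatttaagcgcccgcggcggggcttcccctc
NDUFV2: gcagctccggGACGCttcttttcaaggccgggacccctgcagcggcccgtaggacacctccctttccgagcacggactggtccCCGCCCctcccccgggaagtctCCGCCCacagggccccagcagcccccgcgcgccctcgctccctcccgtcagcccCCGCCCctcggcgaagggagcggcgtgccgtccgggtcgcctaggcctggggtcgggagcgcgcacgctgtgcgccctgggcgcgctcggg
NDUFV3: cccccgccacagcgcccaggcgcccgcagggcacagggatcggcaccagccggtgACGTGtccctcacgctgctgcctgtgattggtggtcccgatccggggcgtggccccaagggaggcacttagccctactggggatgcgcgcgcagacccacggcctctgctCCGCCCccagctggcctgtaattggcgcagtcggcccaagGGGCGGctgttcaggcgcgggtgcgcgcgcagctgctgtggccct
NDUFB1: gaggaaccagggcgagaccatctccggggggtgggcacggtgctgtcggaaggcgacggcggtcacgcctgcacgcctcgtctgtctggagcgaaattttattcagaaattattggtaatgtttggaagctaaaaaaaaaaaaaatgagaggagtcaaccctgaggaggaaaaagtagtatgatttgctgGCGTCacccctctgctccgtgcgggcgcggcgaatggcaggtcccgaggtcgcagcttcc

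The motifs were CGCATGCG (NRF1), CCGGAAG (ETS factors), AAGATGGC (YY1), GTAAACA (forkhead factors), GACGC (a second motif known for FOXN proteins), ACGTG (the core of the hypoxia response element) and GGGCGG (SP1), each searched on both strands. In the 4 windows shown, NDUFAF4 had 1 match, to the ETS motif. NDUFV2 had 1 match to GACGC and 3 to the SP1 motif, NDUFV3 had 1 match to ACGTG and 2 to the SP1 motif, and NDUFB1 had 1 match to GACGC. None of these matches overlapped another. The forkhead motif was in none of the 39 promoters, against 2.25% of 15843 protein-coding promoters, and the YY1 motif was in none, against 1.39%. The NRF1 motif, a known element of nuclear genes for mitochondrial proteins, was in 3 of 39 promoters (7.69%, against 2.49% of all), those of NDUFB4, NDUFS6 and NDUFS7. GACGC was in 17 of 39 (43.6%, against 37.5% of all). It was in 6 of 9 promoters of the genes lower with both siRNAs, in 1 of 5 of those higher with both and in 5 of 16 of those called with neither. The 1 of 5 with GACGC was NDUFV2, which passed the filter only through the knockdown samples. The SP1 motif was in 6 of 9, 3 of 5 (NDUFV2 among them) and 8 of 16 of the same promoters. These counts are small and were not tested. ETS, ACGTG and SP1 motifs were in 15.4, 23.1 and 53.8% of the 39 promoters, against 11.8, 20.8 and 56.0% of all. The median GC content was 60.8% for the 39 promoters and 62.4% for all, with NDUFS4 lowest (36.8%) and NDUFV2 highest (76.8%). A match describes the letters of this window and not a bound site.

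In H1299 cells the 47 genes spanned a wide range of levels. In siControl samples the mean level per length ran from 0.362 FPKM for NDUFA4L2 to 167 FPKM for NDUFS5, a small accessory subunit of the proximal arm, with a median of 18.2 FPKM. NDUFS5 had 138, 154 and 174 FPKM in the siFOXN3-1 samples and 168, 180.5 and 145 FPKM in the siFOXN3-2 samples, against 174, 161 and 165 FPKM in the siControl samples, and the groups overlapped. NDUFB7, of the distal arm, was next at 164 FPKM in siControl. The siControl levels of NDUFS5 and NDUFB7 did not differ from each other beyond the spread between the control samples. The order of the groups by median siControl level was distal arm (25.3 FPKM), N module (24.5 FPKM), Q module (14.8 FPKM), proximal arm (12.1 FPKM) and assembly factors (6.58 FPKM). The highest and lowest siControl means were 34.8 FPKM (NDUFA12) and 0.554 FPKM (NDUFA7) in the N module, and NDUFA9, at 1.82 FPKM, was the lowest of the Q module. The highest and lowest were 167 FPKM (NDUFS5) and 1.29 FPKM (NDUFA13) in the proximal arm, and 164 FPKM (NDUFB7) and 4.15 FPKM (NDUFB8) in the distal arm. Among the assembly factors they were 25.7 FPKM (NDUFAF3) and 1.11 FPKM (NDUFAF5).

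Some of the low levels belong to genes that share their coding sequence with a second annotated gene on the same strand. In GENCODE 29, at least 50% of the coding bases of 6 of the 47 genes lie in exons of another gene on the same strand: NDUFB8 (85.2%), NDUFV2 (84.7%), NDUFA7 (78.3%), NDUFC2 (76.9%), NDUFA9 (67.9%) and NDUFA13 (55.2%). Their siControl levels were 0.554 to 5.31 FPKM with a median of 1.56 FPKM, against a median of 22.2 FPKM (0.362 to 167 FPKM) for the other 41 genes. Of the 7 genes under 2 FPKM in siControl, 4 were among these 6. The rows of the partner genes were low. AC010323.1, AC005833.1 and AL133352.1, the partners of NDUFA7, NDUFA9 and NDUFB8, averaged at most 0.135 FPKM in any group. AC011448.1, the partner of NDUFA13, averaged 0.548, 0.601 and 0.924 FPKM with siFOXN3-1, siFOXN3-2 and siControl. For the partners of NDUFV2 and NDUFC2, and for another partner of NDUFA9, no row was found under the GENCODE 29 name. How the authors' counting treated reads that fit both genes is not given in the sources used here, so the levels of these 6 genes, and their changes, are uncertain.

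**Figure D1:**
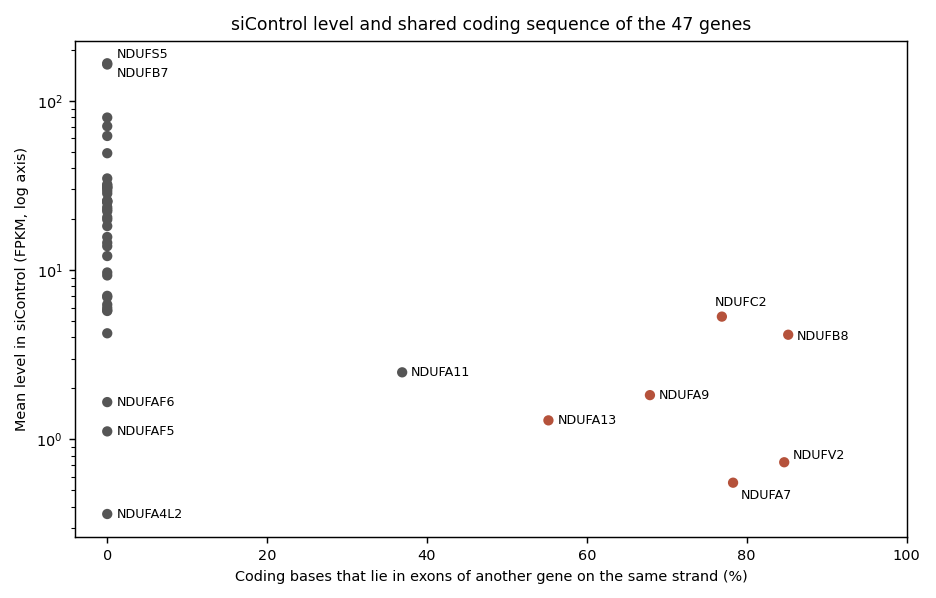
Mean FPKM of each of the 47 genes in the 3 siControl samples (log axis) against the percentage of its coding bases that lie in exons of another gene on the same strand in GENCODE 29. Red points are the 6 genes with at least 50% shared, which lie between 0.554 and 5.31 FPKM, while most grey points stand at 0% shared and above 4 FPKM.

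NDUFA4L2 and NDUFA7 lay below the filter of a mean of 1 FPKM over the 9 samples and were not tested, which left 45 genes. NDUFA4L2, a hypoxia-inducible paralog of NDUFA4, had 0.0746, 0.117 and 0.203 FPKM in the siFOXN3-1 samples and 0.314, 0.154 and 0.0394 FPKM in the siFOXN3-2 samples, against 0.477, 0.371 and 0.237 FPKM in the siControl samples, so that the siFOXN3-1 samples lay below the controls while the siFOXN3-2 samples overlapped with them. NDUFA7, an accessory subunit of the N module, averaged 0.476 ± 0.213 FPKM with siFOXN3-1 and 0.449 ± 0.191 FPKM with siFOXN3-2, against 0.554 ± 0.105 FPKM with siControl (SD, n = 3 each), and its groups overlapped. NDUFA4 averaged 30.5 ± 2.61 FPKM with siFOXN3-1 and 32.1 ± 1.77 FPKM with siFOXN3-2, against 30.7 ± 0.439 FPKM with siControl, and passed the test with neither siRNA.

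The first question was how each knockdown changed these genes. The test was limma's moderated test on log2(FPKM + 1) with p-values adjusted over all 12707 tested genes, and a gene is called where its adjusted p was under 0.05. With siFOXN3-1 against siControl, 18 of the 45 genes were called (40.0%, against 64.7% of all tested genes), 5 of them higher (11.1%, against 19.3%) and 13 lower (28.9%, against 45.3%). With siFOXN3-2 against siControl, 22 were called (48.9%, against 63.3%), 10 of them higher (22.2%, against 24.1%) and 12 lower (26.7%, against 39.2%). The shares were under those of all tested genes, and the share higher with siFOXN3-2 was close to it. Without NDUFV2, which passed the filter only through the knockdown samples, 4 of 44 were higher with siFOXN3-1 and 9 of 44 with siFOXN3-2. The median log2 fold change of the 45 genes was -0.12 with siFOXN3-1 and -0.02 with siFOXN3-2, against -0.17 and -0.10 for all tested genes. No gene of the 45 reached a log2 fold change of 1 in size with either siRNA, while 7.03% and 6.19% of all tested genes did. The extremes were -0.72 (NDUFV3) and 0.44 (NDUFV2; 0.37 for NDUFAF4 without it) with siFOXN3-1 and -0.58 (NDUFV3) and 0.73 (NDUFAF4) with siFOXN3-2. The median of the sizes was 0.15 and 0.19, against 0.33 and 0.31 for all tested genes, and the median half-width of a 95% interval for these genes was 0.22.

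The split into higher and lower depended on the scaling. After scaling by median ratios, which sets the median change of all genes near 0, the 45 genes had 10 higher and 5 lower with siFOXN3-1, and 13 higher and 8 lower with siFOXN3-2. All tested genes then had 3979 higher and 3939 lower with siFOXN3-1 and 3912 higher and 3948 lower with siFOXN3-2, where the unscaled values had 2458 higher and 5762 lower, and 3066 higher and 4983 lower. The median of the 45 genes moved to 0.06 with siFOXN3-1 and 0.09 with siFOXN3-2. None of the called genes changed direction under this scaling, and calls that it ended are given with the genes shown. Among genes not called as reported, it made NDUFA12 (0.24, adjusted p = 0.0347), NDUFA4 (0.19, adjusted p = 0.0453) and NDUFAF5 (0.22, adjusted p = 0.049) higher with siFOXN3-1. NDUFB4 and NDUFB6, described with the distal arm, also became higher with siFOXN3-1. Quantile normalization made NDUFA9 (0.26, adjusted p = 0.0153) and NDUFAF5 (0.30, adjusted p = 0.0187) higher and NDUFB11 (-0.40, adjusted p = 0.00831) and NDUFS5 (-0.34, adjusted p = 7.06e-04) lower with siFOXN3-1. With siFOXN3-2 it made NDUFAF6 higher (0.18, adjusted p = 0.04) and NDUFS5 (-0.18, adjusted p = 0.024) and NDUFA8 (-0.28, adjusted p = 0.0329) lower.

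**Figure D2:**
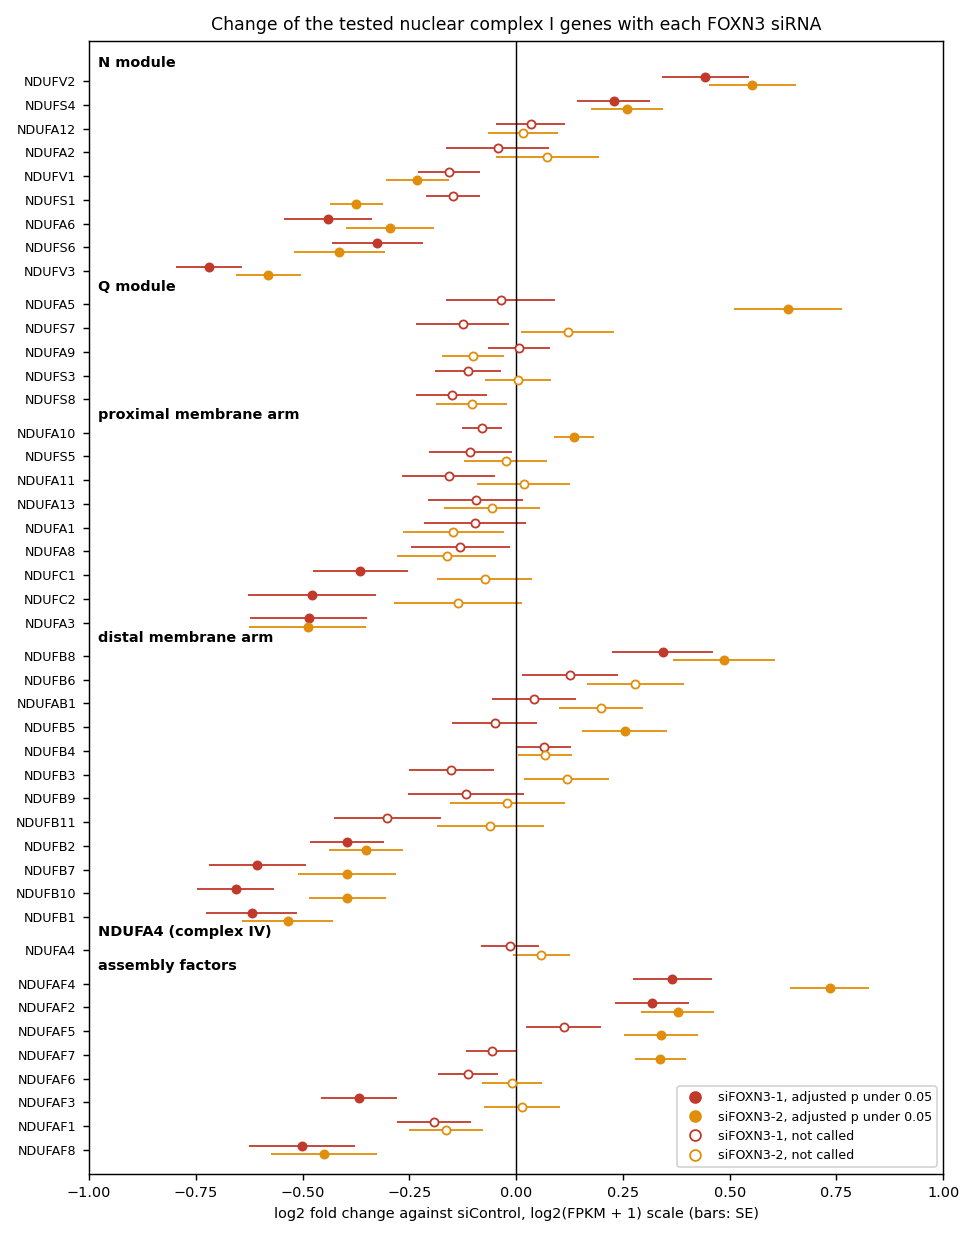
Log2 fold change of 44 of the tested genes with siFOXN3-1 (red, upper of each pair) and siFOXN3-2 (orange) against siControl on the log2(FPKM + 1) scale, grouped by role. Bars are standard errors, filled points passed an adjusted p of 0.05 and open points did not, and the changes run from -0.72 for NDUFV3 to 0.73 for NDUFAF4.

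With both siRNAs 5 genes were higher (NDUFV2, NDUFS4, NDUFB8, NDUFAF2 and NDUFAF4), where 15.3% of all tested genes were, and 10 were lower (among them NDUFV3, NDUFS6, NDUFA6, NDUFA3, NDUFB1, NDUFB2, NDUFB7, NDUFB10 and NDUFAF8), where 33.4% were. NDUFV2 had a siControl mean of 0.731 FPKM and passed the filter only through the knockdown samples, so it had to differ, and 4 genes were higher with both without it. No gene was called in opposite directions. The 2 comparisons share the siControl samples, so a gene called with both is not 2 independent results. Another 20 genes passed with neither siRNA. For the 14 of these 15 genes shown here, neither siRNA group overlapped with siControl. These genes were chosen by their calls in the same comparisons, so the lack of overlap is no separate result. The share without overlap among all tested genes was not counted.

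**Figure D3:**
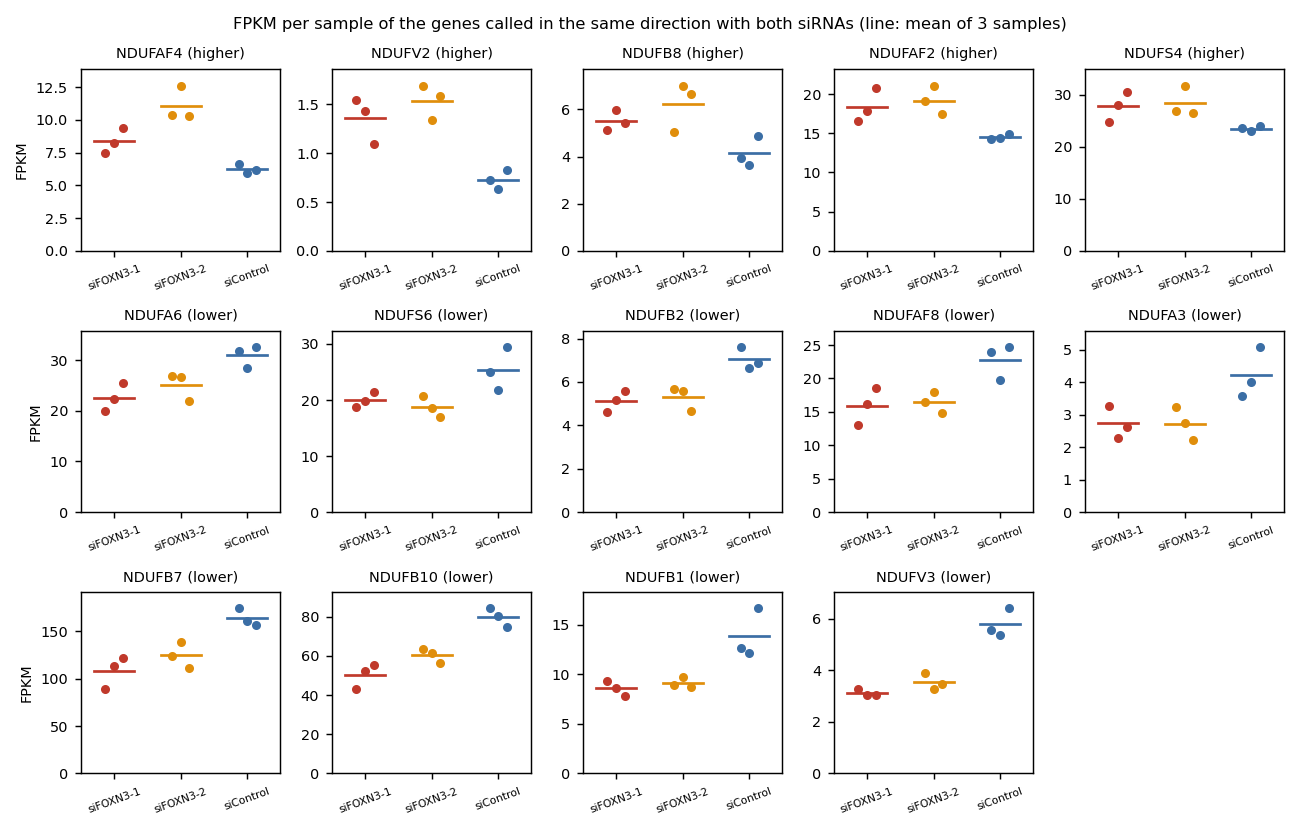
FPKM in every sample (points) with the mean of 3 samples (line) for 14 genes called in the same direction with both siRNAs, ordered from the most positive to the most negative mean change, with a vertical axis from 0 for each gene. In all 14 panels the 3 points of each siRNA lie on one side of the 3 siControl points. The genes were chosen by their calls in these same comparisons.

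The N module is the electron input end of the enzyme. Of its 9 tested genes, 2 were higher and 3 lower with siFOXN3-1 (22.2% and 33.3%, against 19.3% and 45.3% of all tested genes). With siFOXN3-2, 2 were higher and 5 lower (22.2% and 55.6%, against 24.1% and 39.2%). NDUFV2, 1 of the 2 higher with each siRNA, passed the filter only through the knockdown samples. These shares of 9 genes were not tested. NDUFV3, an accessory subunit (chromosome 21, 42879644 to 42913304), had 3.28, 3.04 and 3.03 FPKM in the siFOXN3-1 samples and 3.88, 3.28 and 3.45 FPKM in the siFOXN3-2 samples, against 5.58, 5.38 and 6.4 FPKM in the siControl samples. The highest knockdown sample was well below the lowest control, and the means were 53.9% and 61.1% of the siControl mean. This gave log2 fold changes of -0.72 (SE 0.0765, adjusted p = 2.05e-05) and -0.58 (SE 0.0765, adjusted p = 9.5e-05), and both calls held in all alternatives tried.

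NDUFV2, which carries an iron-sulfur cluster of the NADH site (chromosome 18, 9102630 to 9134345), went the other way. It had 1.54, 1.44 and 1.09 FPKM in the siFOXN3-1 samples and 1.69, 1.34 and 1.59 FPKM in the siFOXN3-2 samples, against 0.7304, 0.634 and 0.829 FPKM in the siControl samples. The means were 186% and 211% of siControl, and the log2 fold changes were 0.44 (SE 0.102, adjusted p = 0.00323) and 0.55 (SE 0.102, adjusted p = 8.66e-04). The pseudocount of 1 FPKM damps a gene this low, and voom on reads recovered from the FPKM gave 0.88 and 1.06. NDUFV2 averaged 60.0 recovered reads per sample, it passed the filter only through the knockdown samples, and 84.7% of its coding sequence is shared with another gene. A pseudogene, NDUFV2P1, and an antisense gene, NDUFV2-AS1, had rows of their own with means of 0.982 and 1.33 FPKM over the 9 samples.

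NDUFS4, an accessory subunit whose loss is a known cause of Leigh syndrome, was also higher (chromosome 5, 53560633 to 53683340). It had 24.8, 28.1 and 30.5 FPKM in the siFOXN3-1 samples and 26.9, 31.7 and 26.6 FPKM in the siFOXN3-2 samples, against 23.5, 23.03 and 23.9 FPKM in the siControl samples. The lowest knockdown sample was close to the highest control, and the log2 fold changes were 0.23 (adjusted p = 0.0364) and 0.26 (adjusted p = 0.0213). The call with siFOXN3-1 was lost without any single siControl sample and without siFOXN3-1 replicate 2 or 3 (adjusted p 0.0639 to 0.136), and that with siFOXN3-2 without siControl replicate 2 or siFOXN3-2 replicate 2.

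NDUFS6 and NDUFA6, accessory subunits near the junction of the N and Q modules, were lower with both. NDUFA6 had 19.9, 22.4 and 25.5 FPKM in the siFOXN3-1 samples and 26.9, 26.6 and 21.8 FPKM in the siFOXN3-2 samples, against 31.9, 28.4 and 32.5 FPKM in the siControl samples, with log2 fold changes of -0.44 (adjusted p = 0.00354) and -0.29 (adjusted p = 0.0287). NDUFS6 averaged 19.99 ± 1.37 FPKM with siFOXN3-1 and 18.8 ± 1.88 FPKM with siFOXN3-2, against 25.4 ± 3.804 FPKM with siControl (SD, n = 3 each). For NDUFS6 the log2 fold changes were -0.33 and -0.41 (adjusted p = 0.0202 and 0.00607). Scaling by median ratios ended the NDUFA6 calls with both siRNAs and the NDUFS6 call with siFOXN3-1. The siFOXN3-2 call of NDUFA6 was also lost without siControl replicate 1 or 3 or siFOXN3-2 replicate 3, and the siFOXN3-1 call of NDUFS6 without siControl replicate 3 or siFOXN3-1 replicate 1 or 2.

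NDUFS1, the large iron-sulfur subunit that carries electrons through the N module, was lower with siFOXN3-2. It had 9.003, 7.78 and 8.11 FPKM in the siFOXN3-1 samples and 6.67, 6.95 and 7.21 FPKM in the siFOXN3-2 samples, against 9.601, 9.27 and 8.998 FPKM in the siControl samples. The siFOXN3-2 samples lay below all others, while siFOXN3-1 replicate 1 overlapped with siControl. The log2 fold change was -0.37 with siFOXN3-2 (adjusted p = 4.5e-04) and -0.15 with siFOXN3-1 (adjusted p = 0.0582). NDUFV1, the flavin-binding core subunit, had 27.9, 27.9 and 30.2 FPKM in the siFOXN3-1 samples and 27.2, 29.8 and 24.7 FPKM in the siFOXN3-2 samples, against 33.5, 29.9 and 32.8 FPKM in the siControl samples. Its highest siFOXN3-2 sample was just below its lowest control, and the log2 fold change of -0.23 (adjusted p = 0.019) with siFOXN3-2 did not pass without siControl replicate 1 or 3, without siFOXN3-2 replicate 3 or after scaling by median ratios. NDUFA2 and NDUFA12, the remaining tested genes of the module, passed with neither siRNA, with log2 fold changes between -0.04 and 0.07, although NDUFA12 was called higher with siFOXN3-1 after scaling by median ratios.

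In the Q module, which passes electrons to ubiquinone, the accessory subunit NDUFA5 was higher with siFOXN3-2. NDUFA5 (chromosome 7, 123536997 to 123558255) had 5.95, 5.01 and 5.69 FPKM in the siFOXN3-1 samples and 7.67, 11.4 and 9.53 FPKM in the siFOXN3-2 samples, against 6.33, 4.89 and 5.96 FPKM in the siControl samples. Every siFOXN3-2 sample was above every other sample, at a mean of 166% of siControl, while siFOXN3-1 overlapped with siControl. The log2 fold change was 0.64 with siFOXN3-2 (SE 0.127, adjusted p = 0.00143) and -0.04 with siFOXN3-1 (adjusted p = 0.819). A pseudogene row, NDUFA5P11, had a mean of 1.47 FPKM over the 9 samples. NDUFS3, NDUFS7, NDUFS8 and NDUFA9 passed with neither siRNA, with log2 fold changes from -0.15 to 0.12. NDUFS3, NDUFS7 and NDUFS8 are core subunits, and NDUFA9 is an accessory subunit. For NDUFS7, 49.1% of the exon bases lie under genes on the opposite strand, which the library kit cannot separate.

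In the proximal membrane arm, 3 of 9 tested genes were lower with siFOXN3-1 (33.3%, against 45.3% of all tested genes). With siFOXN3-2, 1 was higher and 1 lower (11.1% each, against 24.1% and 39.2%). NDUFA3, a small accessory subunit (chromosome 19, 54102728 to 54109257), was lower with both siRNAs. It had 3.28, 2.28 and 2.63 FPKM in the siFOXN3-1 samples and 3.23, 2.74 and 2.21 FPKM in the siFOXN3-2 samples, against 3.59, 4.02 and 5.08 FPKM in the siControl samples. The means were 64.6% and 64.5% of siControl, with log2 fold changes of -0.49 for each (adjusted p = 0.01 and 0.0103). Scaling by median ratios ended the call with siFOXN3-1 (-0.33, adjusted p = 0.0579), and quantile normalization ended both.

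NDUFC1 and NDUFC2, which join the membrane arm early in assembly, were lower with siFOXN3-1. NDUFC1 had 9.97, 11.9 and 14.2 FPKM in the siFOXN3-1 samples and 14.8, 15.7 and 13.97 FPKM in the siFOXN3-2 samples, against 15.9, 14.1 and 17.1 FPKM in the siControl samples. Its siFOXN3-1 replicate 3 was above siControl replicate 2, so those groups overlapped although the gene was called (-0.36, adjusted p = 0.0147). NDUFC2 had 3.29, 2.98 and 4.35 FPKM in the siFOXN3-1 samples and 3.92, 5.91 and 4.44 FPKM in the siFOXN3-2 samples, against 5.53, 4.38 and 6.01 FPKM in the siControl samples, and its log2 fold change with siFOXN3-1 was -0.48 (adjusted p = 0.0175). The NDUFC1 call was lost without siControl replicate 3, and the NDUFC2 call without siControl replicate 1 or 3 or siFOXN3-1 replicate 1 or 2, and both were lost after scaling by median ratios or quantiles. With siFOXN3-2 the log2 fold changes were -0.07 for NDUFC1 and -0.14 for NDUFC2, with adjusted p = 0.581 and 0.447.

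NDUFA10, an accessory subunit of the membrane arm on the matrix side, varied little between replicates. It had 11.6, 11.3 and 11.3 FPKM in the siFOXN3-1 samples and 13.7, 13.5 and 13.02 FPKM in the siFOXN3-2 samples, against 11.97, 11.9 and 12.4 FPKM in the siControl samples. The 3 groups did not overlap, with siFOXN3-2 highest and siFOXN3-1 lowest, although the means were only 111% and 94.2% of siControl. The log2 fold change with siFOXN3-2 was 0.14 (adjusted p = 0.0292), a call that was lost without siControl replicate 1 or 2 or siFOXN3-2 replicate 1 or 2, and with siFOXN3-1 it was -0.08 (adjusted p = 0.165). NDUFA1, NDUFA8, NDUFA11, NDUFA13 and NDUFS5, the other accessory subunits of this arm, passed with neither siRNA, with log2 fold changes from -0.16 to 0.02.

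In the distal membrane arm, 4 of 12 tested genes were lower with both siRNAs (33.3%), a share like that in the N module (3 of 9) and near that of all tested genes (33.4%). Of the 12, 1 was higher and 4 lower with siFOXN3-1 (8.33% and 33.3%, against 19.3% and 45.3% of all tested genes). With siFOXN3-2, 2 were higher and 4 lower (16.7% and 33.3%, against 24.1% and 39.2%). NDUFB10, an accessory subunit with disulfide bonds that faces the intermembrane space (chromosome 16, 1959508 to 1961975), had 43.2, 52.4 and 55.4 FPKM in the siFOXN3-1 samples and 63.3, 61.3 and 56.2 FPKM in the siFOXN3-2 samples, against 84.2, 80.2 and 74.5 FPKM in the siControl samples. The means were 63.2% and 75.7% of siControl, with log2 fold changes of -0.66 (SE 0.0909, adjusted p = 1.21e-04) and -0.40 (SE 0.0909, adjusted p = 0.00341). NDUFB7, a subunit of the same face and the most highly expressed of the distal arm (chromosome 19, 14566078 to 14572062), had 89.5, 113 and 122 FPKM in the siFOXN3-1 samples and 124, 139 and 111 FPKM in the siFOXN3-2 samples, against 174, 161 and 156 FPKM in the siControl samples. Its log2 fold changes were -0.61 (adjusted p = 9.52e-04) and -0.40 (adjusted p = 0.0118), the second not called after scaling by median ratios (-0.28, adjusted p = 0.0651).

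NDUFB1, a small single-span subunit (chromosome 14, 92116122 to 92121917), had 9.34, 8.61 and 7.82 FPKM in the siFOXN3-1 samples and 8.96, 9.72 and 8.78 FPKM in the siFOXN3-2 samples, against 12.7, 12.2 and 16.7 FPKM in the siControl samples. The knockdown samples lay within a narrow range and below the controls, of which replicate 3 was the highest. The log2 fold changes were -0.62 (SE 0.107, adjusted p = 5.47e-04) and -0.54 (SE 0.107, adjusted p = 0.00148). NDUFB2, another small membrane subunit, averaged 5.12 ± 0.482 FPKM with siFOXN3-1 and 5.32 ± 0.576 FPKM with siFOXN3-2, against 7.04 ± 0.502 FPKM with siControl (SD, n = 3 each). Its log2 fold changes were -0.40 and -0.35 (adjusted p = 0.00243 and 0.00509). The siFOXN3-1 call of NDUFB2 was lost after scaling by median ratios, and quantile normalization ended both of its calls. For NDUFB2, 35.1% of the exon bases lie under genes on the opposite strand, BRAF among them.

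NDUFB8, often used as a marker of assembled complex I, was the distal arm gene that was higher with both siRNAs (chromosome 10, 100523740 to 100530000). It had 5.13, 5.98 and 5.399 FPKM in the siFOXN3-1 samples and 5.03, 6.995 and 6.64 FPKM in the siFOXN3-2 samples, against 3.94, 3.62 and 4.88 FPKM in the siControl samples. The lowest knockdown sample stood just above siControl replicate 3, and the log2 fold changes were 0.34 (adjusted p = 0.0272) and 0.49 (adjusted p = 0.00493). The siFOXN3-1 call was lost without siControl replicate 1 or 2 or siFOXN3-1 replicate 2 or 3 (adjusted p 0.0521 to 0.0997). NDUFB8 shares 85.2% of its coding bases with another gene, so its level is uncertain.

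NDUFB5, a single-span subunit of the distal arm, had 17.8, 16.9 and 17.8 FPKM in the siFOXN3-1 samples and 19.3, 25.4 and 21.1 FPKM in the siFOXN3-2 samples, against 19.7, 16.03 and 18.9 FPKM in the siControl samples. The siFOXN3-2 samples overlapped with siControl, and the log2 fold change of 0.25 (adjusted p = 0.0461) was lost in 12 of 20 alternatives, among them without siControl replicate 2 or 3, without siFOXN3-2 replicate 2 or 3 and without any single siFOXN3-1 sample. The other 6 genes of the arm, NDUFAB1, NDUFB3, NDUFB4, NDUFB6, NDUFB9 and NDUFB11, passed with neither siRNA. NDUFAB1 is the mitochondrial acyl carrier protein. The most negative value among these 6 was -0.30 for NDUFB11 with siFOXN3-1 (adjusted p = 0.0555) and the most positive 0.28 for NDUFB6 with siFOXN3-2 (adjusted p = 0.0518). After scaling by median ratios, NDUFB4 and NDUFB6 were called higher with both siRNAs and NDUFAB1 with siFOXN3-2.

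Of the 8 NDUFAF assembly factors, 2 were higher and 2 lower with siFOXN3-1 (25.0% each, against 19.3% and 45.3% of all tested genes). With siFOXN3-2, 4 were higher and 1 lower (50.0% and 12.5%, against 24.1% and 39.2%). These shares of 8 genes were not tested. NDUFAF4, which acts with NDUFAF3 in building the Q module (chromosome 6, 96889313 to 96897881), had 7.498, 8.25 and 9.38 FPKM in the siFOXN3-1 samples and 10.4, 12.6 and 10.3 FPKM in the siFOXN3-2 samples, against 6.62, 5.97 and 6.17 FPKM in the siControl samples. The 3 groups did not overlap, with siFOXN3-2 highest at 178% of the siControl mean and siFOXN3-1 at 134%. The log2 fold changes were 0.37 (SE 0.0920, adjusted p = 0.00538) and 0.73 (SE 0.0920, adjusted p = 6.74e-05), and both calls held in all alternatives tried. NDUFAF3 itself had 16.7, 21.4 and 21.2 FPKM in the siFOXN3-1 samples and 25.1, 27.5 and 25.2 FPKM in the siFOXN3-2 samples, against 25.4, 26.8 and 24.8 FPKM in the siControl samples, so that siFOXN3-1 lay below both other groups. Its log2 fold changes were -0.37 (adjusted p = 0.00437, lost after scaling by median ratios) and 0.01 (adjusted p = 0.904).

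NDUFAF2, a late-acting chaperone of the N module (chromosome 5, 60945129 to 61153037), had 16.6, 17.8 and 20.7 FPKM in the siFOXN3-1 samples and 19.1, 21.1 and 17.4 FPKM in the siFOXN3-2 samples, against 14.2, 14.3 and 14.9 FPKM in the siControl samples. The control samples lay close together and below all knockdown samples, with log2 fold changes of 0.32 (SE 0.0863, adjusted p = 0.0082) and 0.38 (SE 0.0863, adjusted p = 0.00326). NDUFA12, the subunit that takes the place of NDUFAF2 in the finished complex, had log2 fold changes of 0.03 and 0.02. NDUFAF8, a partner of NDUFAF5, was lower with both siRNAs. It averaged 15.9 ± 2.76 FPKM with siFOXN3-1 and 16.4 ± 1.57 FPKM with siFOXN3-2, against 22.8 ± 2.61 FPKM with siControl (SD, n = 3 each). For NDUFAF8 the log2 fold changes were -0.50 and -0.45 (adjusted p = 0.00493 and 0.00941), the first lost after scaling by median ratios.

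The enzymes NDUFAF5 and NDUFAF7, which modify arginines of core subunits, were higher with siFOXN3-2. NDUFAF7 had 6.68, 6.52 and 6.58 FPKM in the siFOXN3-1 samples and 8.81, 8.74 and 9.44 FPKM in the siFOXN3-2 samples, against 7.49, 6.59 and 6.66 FPKM in the siControl samples. The siFOXN3-2 samples stood above all others, and the log2 fold changes were 0.34 with siFOXN3-2 (SE 0.0601, adjusted p = 6.87e-04) and -0.06 with siFOXN3-1 (adjusted p = 0.422). NDUFAF5 had 1.16, 1.24 and 1.46 FPKM in the siFOXN3-1 samples and 1.605, 1.89 and 1.54 FPKM in the siFOXN3-2 samples, against 1.097, 1.05 and 1.196 FPKM in the siControl samples. Its log2 fold changes were 0.34 with siFOXN3-2 (adjusted p = 0.00631) and 0.11 with siFOXN3-1 (adjusted p = 0.285). NDUFAF1, of the assembly complex that builds part of the membrane arm, and NDUFAF6, an early factor, passed with neither siRNA, with log2 fold changes from -0.19 to -0.01.

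Between the siRNAs, 9 of the 45 genes were called with siFOXN3-2 against siFOXN3-1 (20.0%, against 36.1% of all tested genes), 8 of them higher (17.8%, against 25.4%) and 1 lower (2.22%, against 10.7%). The median log2 fold change was 0.12, against 0.08 for all tested genes, and scaling by median ratios left 4 higher and 1 lower. Those higher with siFOXN3-2 included NDUFA5 (0.67, adjusted p = 0.00299), NDUFAF7 (0.40, adjusted p = 9.62e-04), NDUFAF3 (0.38, adjusted p = 0.00846), NDUFAF4 (0.37, adjusted p = 0.0116), NDUFB5 (0.30, adjusted p = 0.037), NDUFB10 (0.26, adjusted p = 0.0462) and NDUFA10 (0.21, adjusted p = 0.00644). The 1 lower was NDUFS1 (-0.23, adjusted p = 0.0182). The siRNA groups of these 8 genes did not overlap with each other, but the genes were chosen by this same comparison. The share of all tested genes without such overlap was not counted. NDUFA5, NDUFAF3 and NDUFAF7 kept this call in all alternatives tried. The call was lost without siFOXN3-1 replicate 1 or siFOXN3-2 replicate 1 for NDUFS1, in 11 of 20 alternatives for NDUFB5 and in 13 of 20 for NDUFB10, whose losses included leaving out each siControl sample. For NDUFAF4 and NDUFA10 it was lost after scaling by median ratios (0.28, adjusted p = 0.0517, and 0.13, adjusted p = 0.0617) and by quantiles (0.26, adjusted p = 0.0605, and 0.10, adjusted p = 0.118). FOXN3 itself had a log2 fold change of -0.18 between the siRNAs (adjusted p = 0.0659), which was called after scaling by median ratios (-0.24, adjusted p = 0.0285).

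Summed over the 47 genes, FPKM was 943, 1032 and 1130 in siFOXN3-1 replicates 1 to 3 and 1145, 1238 and 1021 in siFOXN3-2 replicates 1 to 3, against 1258, 1143 and 1217 in siControl replicates 1 to 3. The means were 1035 ± 93.6 and 1135 ± 108 FPKM, against 1206 ± 57.9 FPKM (SD, n = 3 each). The siFOXN3-1 samples lay below all controls, the closest by a narrow margin, and the siFOXN3-2 samples overlapped with the controls. The picture differed when mitochondrially encoded genes were left out of the summed FPKM. Of that remainder the 47 genes held 0.392, 0.421 and 0.449% in siFOXN3-1 replicates 1 to 3. They held 0.466, 0.489 and 0.425% in siFOXN3-2 replicates 1 to 3, against 0.527, 0.495 and 0.517% in siControl replicates 1 to 3. On this measure all knockdown samples lay below all controls. A large part of the 47-gene sum came from NDUFS5 and NDUFB7. Within each group 1 sample was low for most of the genes. Of the 45 tested genes, siFOXN3-1 replicate 1 was the lowest of its group in 29 (64.4%, against 32.9% of all tested genes), siFOXN3-2 replicate 3 in 32 (71.1%, against 28.2%) and siControl replicate 2 in 36 (80.0%, against 37.3%). The replicates thus varied in common for these genes, and the median coefficient of variation was 9.26%, 10.5% and 7.24% with siFOXN3-1, siFOXN3-2 and siControl, against 7.39%, 8.93% and 5.95% for all tested genes. In each group the sample with the lowest sum had the highest share of mitochondrially encoded RNA. That share was 9.02% of the summed FPKM in siFOXN3-1 replicate 1, 9.07% in siFOXN3-2 replicate 3 and 14.2% in siControl replicate 2. Its part in the levels of the nuclear genes was not tested.

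**Figure D4:**
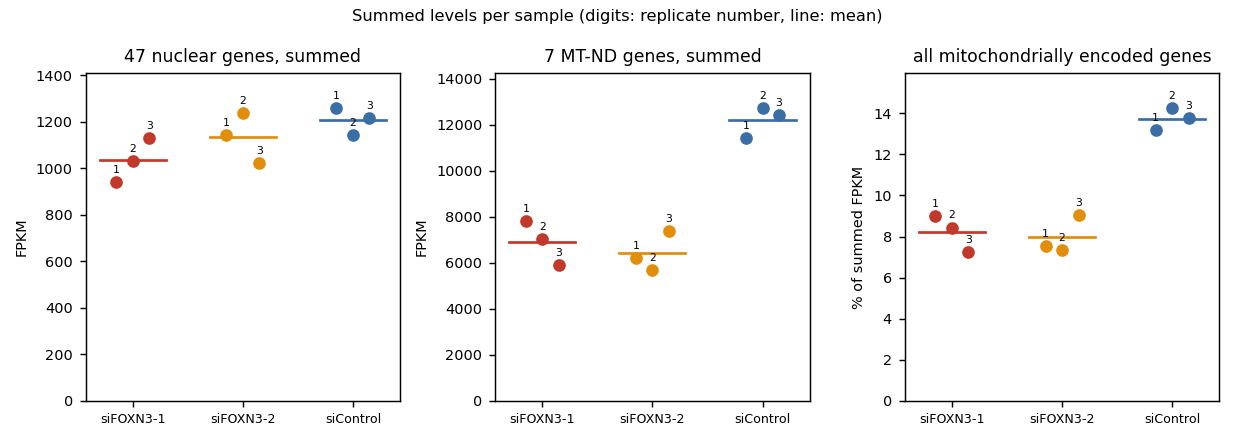
Summed FPKM of the 47 nuclear genes (left), summed FPKM of the 7 MT-ND genes (middle) and the percentage of all summed FPKM that came from mitochondrially encoded genes (right) in each sample, numbered by replicate, with group means as lines. The nuclear sums overlap between siFOXN3-2 and siControl, while the MT-ND sums and the mitochondrial shares of all 6 knockdown samples lie below those of the 3 controls.

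The 7 complex I subunits encoded in mitochondrial DNA, which form the core of the membrane arm, were lower with both siRNAs in 7 of 7 cases, where 33.4% of all tested genes were. Their median log2 fold change was -0.82 with siFOXN3-1 and -1.01 with siFOXN3-2. MT-ND3 changed the most, with 208, 129 and 112 FPKM in the siFOXN3-1 samples and 115, 118 and 119 FPKM in the siFOXN3-2 samples, against 388, 378 and 545 FPKM in the siControl samples, with log2 fold changes of -1.57 (adjusted p = 8.02e-05) and -1.86 (adjusted p = 2.68e-05). MT-ND2 averaged 872 ± 149 FPKM with siFOXN3-1 and 821 ± 96.98 FPKM with siFOXN3-2, against 1834 ± 38.1 FPKM with siControl (SD, n = 3 each). MT-ND4 had the mildest change, with log2 fold changes of -0.68 and -0.69 (adjusted p = 2.46e-04 and 2.58e-04). Quantile normalization ended the siFOXN3-1 calls of MT-ND1 (-0.36, adjusted p = 0.074, against -0.71 as reported) and MT-ND4L (-0.54, adjusted p = 0.0531, against -0.86). With siFOXN3-2 the MT-ND1 change was -0.41 (adjusted p = 0.0463) under it, against -0.81. Summed over the 7 genes, the level averaged 6914 ± 952 FPKM with siFOXN3-1 and 6430 ± 851 FPKM with siFOXN3-2, against 12190 ± 670 FPKM with siControl. The sum of the 47 nuclear genes was 85.8% and 94.1% of siControl with siFOXN3-1 and siFOXN3-2. That of the MT-ND genes was 56.7% and 52.7%. Of the summed FPKM outside mitochondrially encoded genes, the 47 genes held on average 0.4205% and 0.4599%, against 0.5129% with siControl. All mitochondrially encoded genes together held 7.27 to 9.07% of the summed FPKM in the knockdown samples, against 13.2 to 14.2% in the controls, and since these libraries were made from polyadenylated RNA the values describe polyadenylated mitochondrial transcripts.

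Assembly factors of complex I whose symbols do not begin with NDUFAF were counted beside the 8 that do. Of 12 tested, 7 were lower and 0 higher with siFOXN3-1, and 5 were lower and 1 higher with siFOXN3-2, with medians of -0.37 and -0.21. The shares lower were 58.3% and 41.7%, against 45.3% and 39.2% of all tested genes. Scaling by median ratios ended the siFOXN3-1 calls of COA1 (adjusted p = 0.216) and DMAC1 (adjusted p = 0.125) and the siFOXN3-2 call of RTN4IP1 (adjusted p = 0.0798), and DMAC2 was then higher with siFOXN3-1 (0.16, adjusted p = 0.0245, against -0.04 and adjusted p = 0.506 as reported). These 4 genes are further assembly factors. Quantile normalization also ended the COA1 and RTN4IP1 calls. ACAD9, which joins NDUFAF1 in that complex, had 6.35, 6.58 and 7.1 FPKM in the siFOXN3-1 samples and 8.07, 7.99 and 8.22 FPKM in the siFOXN3-2 samples, against 13.1, 13.4 and 12.8 FPKM in the siControl samples. For ACAD9 the log2 fold changes were -0.88 (adjusted p = 6.04e-07) and -0.63 (adjusted p = 5.12e-06), while those of NDUFAF1 were -0.19 (adjusted p = 0.0735) and -0.16 (adjusted p = 0.124). TMEM186 and TIMMDC1, further membrane arm factors, had log2 fold changes of -0.89 and -0.74, and of -0.80 and -0.63. TMEM186 had 1.35, 1.58 and 1.36 FPKM in the siFOXN3-1 samples and 1.57, 1.84 and 1.68 FPKM in the siFOXN3-2 samples, against 3.35, 3.82 and 3.31 FPKM in the siControl samples. FOXRED1, a factor of late assembly, had -0.79 and -0.61, and all of these passed the test with both siRNAs. TMEM70, better known as an assembly factor of ATP synthase, was the 1 that was higher with siFOXN3-2 (0.27, adjusted p = 0.0231, and 0.0611 without a filter).

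For scale, nuclear genes of complexes II to V were counted in the same way. They were chosen by symbol, which took in assembly factors of complex II (SDHAF genes) and of complex III (BCS1L). Of 49 tested, 2 were higher and 16 lower with siFOXN3-1 (4.08% and 32.65%, against 19.3% and 45.3% of all tested genes). With siFOXN3-2, 7 were higher and 10 lower (14.3% and 20.4%, against 24.1% and 39.2%). The median log2 fold changes were -0.10 and -0.04. The 36 tested structural subunits of complex I had 3 higher and 11 lower with siFOXN3-1 (8.33% and 30.6%). They had 6 higher and 11 lower with siFOXN3-2 (16.7% and 30.6%), with medians of -0.13 and -0.06. NDUFV2 is counted among the higher. The list of structural subunits of complex I leaves assembly factors out, while that of complexes II to V does not. These counts describe the lists, and no difference between them was tested.

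**Figure D5:**
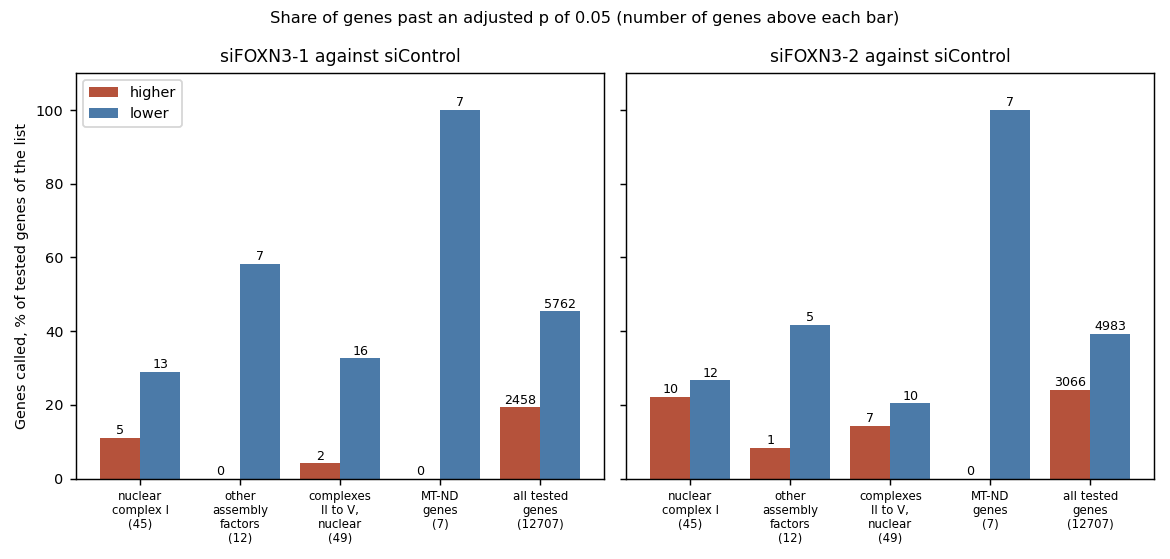
Percentage of the tested genes of each list that were called higher (red) or lower (blue) with siFOXN3-1 (left) and siFOXN3-2 (right) against siControl, with the number of genes above each bar and the number tested in parentheses. The nuclear complex I genes have both higher and lower calls with each siRNA, at shares under those of all tested genes, while all 7 MT-ND genes are lower.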

How the data were processed

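RNA sequencing of 9 H1299 samples was used. Groups were taken from sample titles. The values are FPKM, made and deposited by the authors in 1 table of 34789 genes. Per the submitters' processing notes, fastp 0.14.0, HISAT2 2.1.0 and StringTie 1.3.3b were run on GRCh38. The annotation release and counting options were not given in the sources used here. Per the labels' protocols the library kit was NEBNext Ultra, which does not mark strand.

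Low FPKM values are whole multiples of what 1 read is worth. With exon lengths of GENCODE 29, 98.2% of values worth up to 50 reads were whole within 0.05, which gave depths of 17.0 to 19.6 M fragments (M, 1e6) and reads for an alternative test.

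The test used log2(FPKM + 1) for the 12707 genes whose mean reached 1 FPKM, and 22082 genes were left out. All 9 samples entered 1 limma model of 3 groups (limma 3.58.1, R 4.3.3) with a trended prior, with 4.02 prior and 6 residual degrees of freedom. Tests were two-sided, with p-values adjusted by the Benjamini-Hochberg method over all tested genes and a threshold of 0.05. Fold changes are on the log2(FPKM + 1) scale, which understates changes of low genes. On simulated data of 12699 genes, changes of 0.5 and 1 on the log2 scale were recovered in 63% and 93% of genes for siFOXN3-1. False calls were 6.59%. For siFOXN3-2 the shares were 70% and 95%, with 4.07% false calls. Only 100 genes changed at each size, with 1 fixed dispersion and no general shift. In the data 64.7% and 63.3% of tested genes were called, so these shares may not carry over to them.

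The genes, role lists, motifs and tests were chosen with earlier results of these data known. Values in every sample are given for genes called with both siRNAs, with 1 siRNA only or between the siRNAs, and for the highest and lowest of a role group. Some of these are given as means, and some genes are included in counts but not reported here. Alternatives were a pseudocount of 0.1, filters at 0.1 and 5 FPKM or none, scaling by median ratios or quantiles, no trend, compared groups only, protein-coding genes only, voom on recovered reads, a replicate block and leaving out each sample. Python 3.11.15, pandas 2.3.3, scipy 1.17.1 and matplotlib 3.10.9 were used.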

Additional observations from a re-analysis of the deposited data

Results flagged for a closer look

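Among the 45 tested genes, 8 shown here differed between the knockdown groups by limma's test of siFOXN3-2 against siFOXN3-1 at an adjusted p under 0.05. The log2 fold changes were 0.67 for NDUFA5, 0.40 for NDUFAF7, 0.38 for NDUFAF3, 0.37 for NDUFAF4, 0.30 for NDUFB5, 0.26 for NDUFB10, 0.21 for NDUFA10 and -0.23 for NDUFS1. Both siRNAs are directed against FOXN3. In all 3 siFOXN3-2 samples against all 3 siFOXN3-1 samples, the values lay on the side of the fold change for each of these genes. The genes were chosen by this same comparison, so this is no separate result, and the share of all tested genes with such a separation was not counted. NDUFA5 and NDUFAF7 had the largest differences; against siControl they were called with siFOXN3-2 and not with siFOXN3-1.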

How the results depend on the processing

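All called genes kept their direction in the alternatives run. Calls held in all alternatives for 8 of 18 genes with siFOXN3-1, 13 of 22 with siFOXN3-2 and 4 of 9 between the siRNAs. Scaling by median ratios gave 10 genes higher and 5 lower with siFOXN3-1 (5 and 13 as reported), and 5 called, 4 of them higher, between the siRNAs (9 and 8 as reported). Quantile normalization gave 5 higher between the siRNAs, and no filter gave 3 higher with siFOXN3-1. For the scalings the cause was not tested. Without a filter, 34789 genes entered both the fit and the adjustment of p-values, and which of these ended calls was not tested either. The siFOXN3-1 calls of NDUFS6, NDUFS4, NDUFB8 and NDUFC2 and the siFOXN3-2 calls of NDUFA6, NDUFS4 and NDUFB5 were lost there. The calls of NDUFB5 and NDUFB10 between the siRNAs were lost too. Leaving out 1 sample gave 3 to 5 genes higher with siFOXN3-1 and 0 to 1 lower between the siRNAs, with the libraries named beside the genes. The replicate block gave 5 higher and 13 lower with siFOXN3-1, 8 and 11 with siFOXN3-2 and 6 and 1 between the siRNAs. Deviations from the group means had correlations of -0.28 to 0.0528 for samples with the same number, against -0.161 to 0.274 for unlike numbers. No pairing by number was seen, but with 3 samples per group these correlations cannot exclude one. The filter at 5 FPKM removed FOXN3, NDUFV2, NDUFV3, NDUFA3, NDUFC2 and NDUFAF5, among others, which have no value there. Depth limits NDUFV2 and NDUFA13 most, at 60.0 and 60.2 mean reads.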
